A study of Mus musculus with 2 samples.

Results

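Panobinostat-treated mouse renal progenitors were compared with each other by how strongly each cell carried 6 genes that the drug raised: Stmn2, Gsta4, Pcsk1n, Scg5, Csn3 and Mt3. Every panobinostat cell was ranked by the summed UMIs (unique molecular identifiers, that is counted RNA molecules) of these genes as a share of the cell's UMIs, given per 1000000 UMIs. The 228 cells of the lowest 10% are called low-score cells here and the 228 cells of the highest 10% high-score cells, out of 2281 panobinostat cells and 5135 cells in all. The working name of the low-score group was weak responders. Outside the ranking genes, the medians of the drug-raised and drug-lowered genes by the 6-gene score do not bear that name out. Single genes lay with it and against it. The groups are therefore named by their score alone. The members were chosen by the measured UMIs of the 6 genes, so the score is given as a description, and the 6 genes were left out of all comparisons and of the totals.

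The cells came from kidney cortex of 9-week-old C57Bl/6 mice that carried Pax2.rtTA;TetO.Cre together with the reporter R26.mT/mG. An inducible recombinase is under control of the Pax2 promoter, and recombined cells turn from tdTomato to GFP. The labels give 2 mice and do not say whether their cells were pooled. Glomeruli were cultured for 5 days, the GFP-positive outgrowth was sorted, starved for 16 h and then kept for 48 h with 0.2 µM panobinostat or with the solvent DMSO, called vehicle here. Both libraries share the genotype, the sort and the starvation. The GFP mark shows descent from a Pax2-expressing cell, not Pax2 expression at the time of sorting. The study asked how panobinostat acts on these cells.

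Panobinostat inhibits histone deacetylases, the enzymes that take acetyl groups off histone tails and so favour closed chromatin. Inhibition commonly halts proliferation and turns on genes that a tissue normally keeps silent, neuronal genes among them. Of the ranking genes, Stmn2 encodes a microtubule regulator of growing axons, Pcsk1n and Scg5 encode secretory granule proteins, Gsta4 a glutathione S-transferase, Csn3 a milk casein and Mt3 a metallothionein.

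There was 1 library per treatment, and the low-score and high-score cells share 1 library. No test between groups was therefore possible. Counts were summed over the cells of a group and scaled to 1000000 UMIs (CPM), and log2 ratios are low-score over high-score with an exact conditional binomial 95% interval. Intervals here cover counting error only. Calls, in either direction, needed a ratio of 2-fold or more, an interval that excluded equality and 10 CPM in 1 of the 2 groups. Depth was alike, with medians of 39067 UMIs and 6433 genes per low-score cell and 38674 UMIs and 6304 genes per high-score cell. After thinning each cell to 18663 UMIs, which left out 19 low-score and 4 high-score cells, the medians were 4631 and 4544.5 genes. The median mitochondrial share was 6.996% and 6.861%. No cell barcode occurred in both libraries.

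Low-score cells lay at the bottom of a continuous distribution rather than in a group apart. Their score ran from 0 to 690.9 CPM with a median of 585.4, while high-score cells ran from 1603 to 3117 CPM with a median of 1751. The first cell above the low-score group stood at 691.0 CPM, and the last cell below the high-score group at 1600.1 CPM. The median vehicle cell scored 0, and 68.4% of vehicle cells held no UMI of the 6 genes. Of the low-score cells, 3 stood at or below 186.8 CPM, the 95th percentile of vehicle cells, and 27 vehicle cells stood above the highest low-score cell. A low-score cell held a median of 21 UMIs of the 6 genes and a high-score cell 71. When every cell was first thinned to the same depth, 149 of the 228 low-score cells (65.4%) and 164 of the high-score cells (71.9%) were chosen again.

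**Figure D1:**
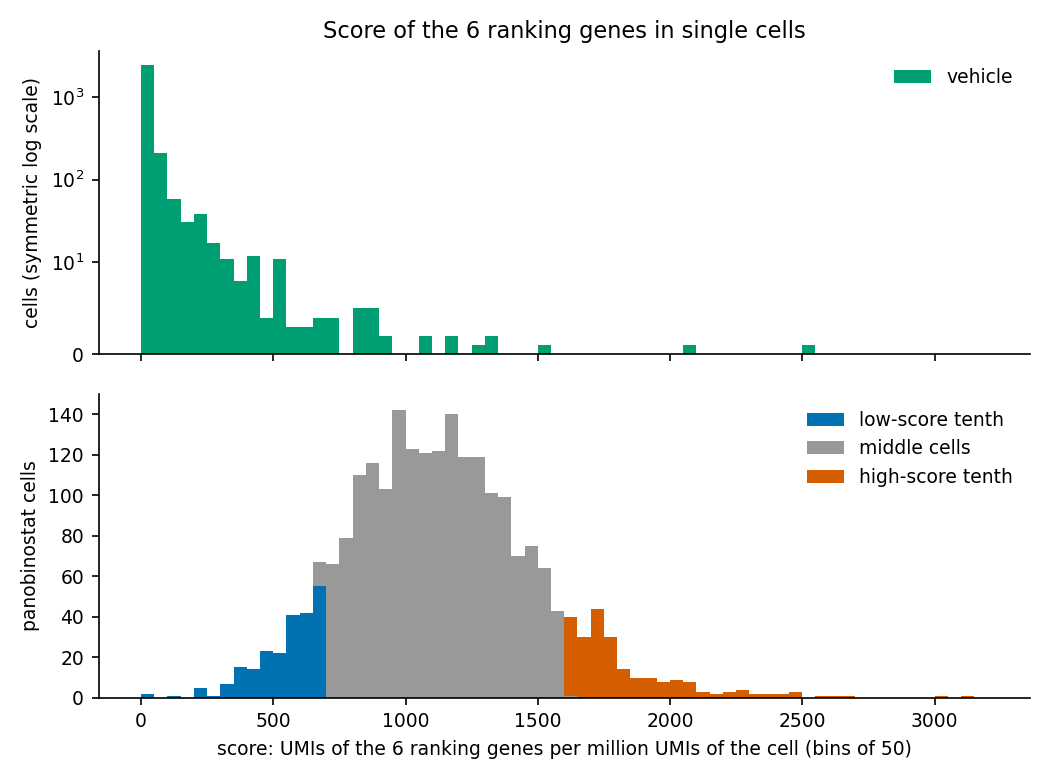
Cells by score, in bins of 50 UMIs of the 6 ranking genes per 1000000 UMIs (x axis); the y axis counts vehicle cells on a symmetric log scale (top) and panobinostat cells on a linear scale (bottom). The low-score 10% ends at 690.9 CPM and the high-score 10% begins at 1603 CPM, both on the flanks of 1 peak, while 68.4% of vehicle cells scored 0.

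Each of the 6 genes was far above vehicle even in the low-score cells. Stmn2 stood at 26.3 CPM in vehicle, 244.3 CPM in low-score and 890.6 CPM in high-score cells. Gsta4 stood at 9.10, 121.1 and 332.7 CPM, and Csn3 at 1.72, 42.2 and 233.9 CPM. The low-score level lay above vehicle by 9.29-fold for Stmn2 at the least and by 62.8-fold for Scg5 at the most. High-score over low-score ratios ran from 1.73-fold for Scg5 to 5.54-fold for Csn3. These ratios follow from the ranking.

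The 6 genes had low correlations with each other from cell to cell. Over the 2281 panobinostat cells, Spearman correlations of their per-cell levels ran from -0.12 (Stmn2 and Gsta4) to 0.18 (Stmn2 and Csn3). The summed level of Stmn2, Pcsk1n and Scg5 had a correlation of 0.01 with that of Gsta4, Csn3 and Mt3. These values share the totals of each cell and rest on few UMIs, so they are a description. Of the 228 cells lowest by the first 3 genes, 39 (17.1%) were also among the 228 lowest by the other 3. For the highest cells the overlap was 16 (7.02%). Each set is 10% of the cells, so sets with no relation would share 10%: the lowest sets shared more than that and the highest less.

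The medians of the wider drug response lay close to that of all genes, while its genes were past the thresholds at larger shares than all genes, except for drug-lowered genes lower by 2-fold. Genes moved by panobinostat were taken from the middle 1825 cells against vehicle, which share no cell with the low-score or high-score group. Of 8864 genes past the floor there, the drug raised 872 (9.84%) and lowered 987 (11.1%) by 2-fold or more. Among all 8435 genes past the floor between low-score and high-score cells, 56 (0.664%) were higher and 16 (0.19%) lower in low-score cells, with a median log2 ratio of 0.08. Of the 866 drug-raised genes past that floor, 11 (1.27%) were higher and 6 (0.693%) lower in low-score cells, with a median log2 ratio of 0.06. Of 565 drug-lowered genes, 12 (2.12%) stood higher and 1 (0.177%) stood lower, and their median was 0.01. At a 1.5-fold threshold, 41 raised genes (4.73%) were lower and 64 (7.39%) higher in low-score cells, against 1.62% and 3.98% of all genes. Of the lowered genes, 30 (5.31%) were higher and 19 (3.36%) lower at that threshold. Low-score cells themselves were at least 2-fold above vehicle for 90.6% of these 866 drug-raised genes, and high-score cells for 87.3%. Over all genes past the floor against vehicle these shares were 11.5% and 9.48%. Low-score cells were at least 2-fold below vehicle for 80.2% of the 565 drug-lowered genes, and high-score cells for 86.5%. The other genes of the 987 were below 10 CPM in both groups and are not counted here. Over all genes past the floor against vehicle the same shares were 10.6% and 11.9%. The median log2 ratio to vehicle of the raised genes was 1.66 in low-score and 1.58 in high-score cells. The choice of these genes and both ratios share the vehicle library. Other scalings moved the median of all genes between low-score and high-score cells, to -0.03 with the TMM factors of edgeR (trimmed mean of log ratios) and -0.04 with DESeq2 size factors. With these the medians were -0.07 and -0.08 for the raised and -0.09 and -0.10 for the lowered genes, so medians this close to 0 carry no direction. Of all calls 77.8% were higher in low-score cells, against 60.8% with TMM and 57.9% with DESeq2 factors. The medians of raised, lowered and all genes also moved with the ranking. They were 0.08, 0.005 and 0.08 by Stmn2, Pcsk1n and Scg5 and -0.006, 0.01 and 0.02 by Gsta4, Csn3 and Mt3. Ranked without Stmn2 they were -0.09, 0.06 and 0.01, and in the largest cluster of panobinostat cells alone -0.03, 0.08 and 0.07.

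The largest rises and falls against vehicle were taken among genes reaching 10 CPM in low-score or high-score cells. Among the 15 such genes with the largest rise, 5 lay above and 10 below 0 between low-score and high-score cells, with 0 called. The farthest below was Serpinb1a, a protease inhibitor, at 0.099 CPM in vehicle, 24.5 CPM in low-score and 48.4 CPM in high-score cells (-0.98). Of the 15 such genes with the largest fall, 7 lay above and 8 below 0. Of these, 4 were called higher in low-score cells: Acta2, Tagln, Acta1 and Tnc, described further on. Acta2, Acta1 and Tnc reached 10 CPM only in the low-score group, which favours a call there. Genes that fell below 10 CPM in both groups, Mki67 among them, are left out of these 15. The long noncoding RNA Meg3 stood at 0.320 CPM in vehicle, 133.8 CPM in low-score, 145.5 CPM in middle and 130.3 CPM in high-score cells, a log2 ratio of 0.04 (-0.08 to 0.15). The microtubule protein Map2 was at 66.1 and 65.9 CPM. The cyclin-dependent kinase inhibitor Cdkn1a, p21, was at 636.5 and 602.0 CPM (0.08). The proliferation marker Mki67 stood at 2.33 and 1.49 CPM (23 and 14 UMIs) against 132.5 CPM in vehicle. The S-phase genes summed to 514.2 CPM in low-score and 520.6 CPM in high-score cells against 2315 CPM in vehicle, and the G2/M genes to 1123, 1315 and 5747 CPM. Of the 40 members of both lists past the floor, 0 were called, and 1 G2/M gene, Kif23, was at least 1.5-fold lower in low-score cells (-0.64). Over all genes 0.664% were called higher and 0.19% lower, so 0 calls among 40 genes carries no result about them.

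**Figure D2:**
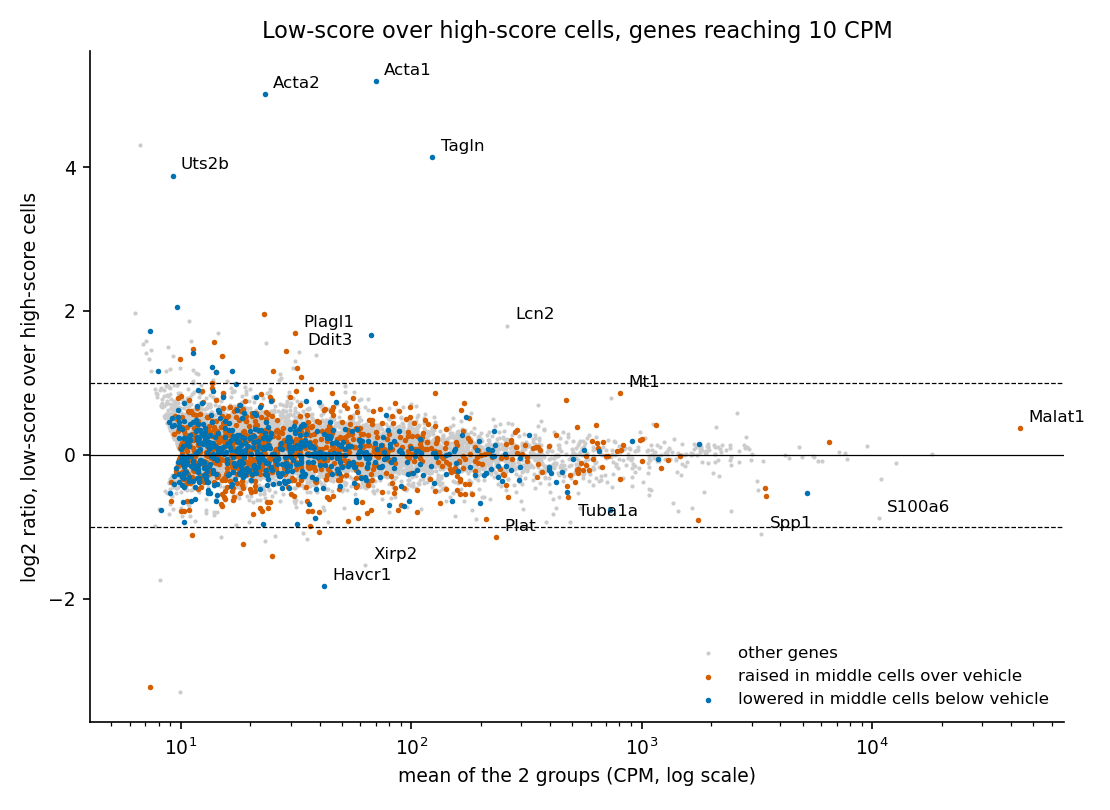
Log2 ratio of low-score over high-score cells (y axis) against the mean CPM of the 2 groups (x axis, log scale) for the 8435 genes reaching 10 CPM; each point is a gene, coloured by its ratio of middle panobinostat cells to vehicle, and dashed lines mark 2-fold. Raised and lowered genes both centre near 0, with medians of 0.06 and 0.01, while Acta1, Acta2 and Tagln are among the 4 highest points and Spp1, Plat and Havcr1 lie below the lower line.

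Genes of the tubulin cytoskeleton lay lower in low-score cells, short of 2-fold. Microtubules are polymers of alpha and beta tubulin, and stathmins, Stmn2 among them, bind free tubulin. The list holds 12 tubulin genes and Stmn1, stathmin 1, which is of the same family as the ranking gene Stmn2. All 13 members passed the floor and lay below 0, against 36.7% of all genes, with a median log2 ratio of -0.77 against 0.08. Stmn1 itself was nearest to 0 (78.9 and 89.9 CPM, -0.19). None reached 2-fold, and 8 of 13 were at least 1.5-fold lower, against 137 of all 8435 genes (1.62%). The alpha tubulin Tuba1a (chromosome 15, 98949837 to 98953703 in GRCm38) stood at 861.7 CPM in vehicle. It stood at 334.9 CPM (exact Poisson interval 323.5 to 346.5) in low-score, 583.6 CPM in middle and 639.3 CPM (623.2 to 655.7) in high-score cells, a ratio of -0.93 (-0.99 to -0.87). The beta tubulin Tubb5 stood at 539.0 and 917.9 CPM (-0.77), Tubb2b at 296.7 and 523.7 CPM (-0.82) and Tubb2a at 134.0 and 247.4 CPM (-0.88). Tubb3, the neuronal beta tubulin, which the drug raised from 3.18 CPM in vehicle, stood at 27.5 and 47.0 CPM (-0.77). Tubulin genes are near-identical in their coding parts, so counting may have split reads between them, and single values are uncertain.

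The tubulin difference was spread over cells. The quartiles of Tuba1a per cell were 118.8 and 474.7 CPM in low-score cells, with a median of 256.1, and 308.2 and 790.9 CPM in high-score cells, with a median of 565.6. The quartile ranges overlapped. Without the 10 highest cells of each group the ratio of Tuba1a was -0.97 and the list median remained -0.77. When all panobinostat cells were cut into 10 equal bins by score, most of the step lay at the bottom. Tuba1a was at 335.0, 518.2 and 529.4 CPM in the lowest, the second and the third bin and at 639.3 CPM in the highest. Of 13 genes of the neuronal cytoskeleton and synapse, 9 lay below and 4 above 0, with a median of -0.30. Among these, the growth cone protein Gap43 (14.8 and 26.1 CPM, -0.82) was lower by at least 1.5-fold, and the neurofilament Nefm (15.2 and 7.46 CPM, 1.03) was higher. The call of Nefm ended under TMM factors (0.92). Genes of neuroendocrine secretory granules, where the products of Pcsk1n and Scg5 act, lay on the other side, with 4 of 6 above 0 and a median of 0.29. Chromogranin A, Chga, stood at 21.2 and 13.6 CPM (0.64).

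Several abundant S100, annexin and galectin genes were lower in low-score cells, short of 2-fold. No list of these families was fixed, and all but Anxa1 were named for their likeness to the score. The direction of those genes follows from that choice, so their values are a description. S100a6, among the most abundant RNAs of these cells (chromosome 3, 90612882 to 90624181), stood at 7865 CPM in vehicle, 7495 CPM in low-score, 11358 CPM in middle and 13824 CPM in high-score cells, a ratio of -0.88 (-0.90 to -0.87). S100a11 stood at 1787 and 3077 CPM (-0.78) and S100a10, the partner of annexin A2, at 1055 and 1805 CPM (-0.78). Anxa1, an annexin that binds membranes in a calcium-dependent way, stood at 264.5 and 506.9 CPM (-0.94, -1.01 to -0.87), and Anxa2 at 1238 and 2070 CPM (-0.74). The galectin Lgals1 stood at 870.8 and 1281 CPM (-0.56). With TMM factors Anxa1 (-1.05) and, among the tubulins, Tuba1a (-1.05) passed 2-fold. The median low-score cell held 6549 CPM of S100a6 and the median high-score cell 12556 CPM.

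S100a11, S100a6 and Lgals1 were the genes most like the score over all panobinostat cells. Of 3071 genes at 50 CPM or more, compared by thinned counts over 2221 cells, the highest Spearman correlations with the score were 0.31 for S100a11, 0.27 for S100a6 and 0.25 for Lgals1. S100a10, Pkm, Serpinb6a, Anxa2, Aldoa, Prdx2 and Tubb5 followed, between 0.23 and 0.19. In all, 8 genes lay above 0.2 and none below -0.2, the lowest being -0.15. Thinned counts and score come from the same cells, so these values are a description.

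**Figure D3:**
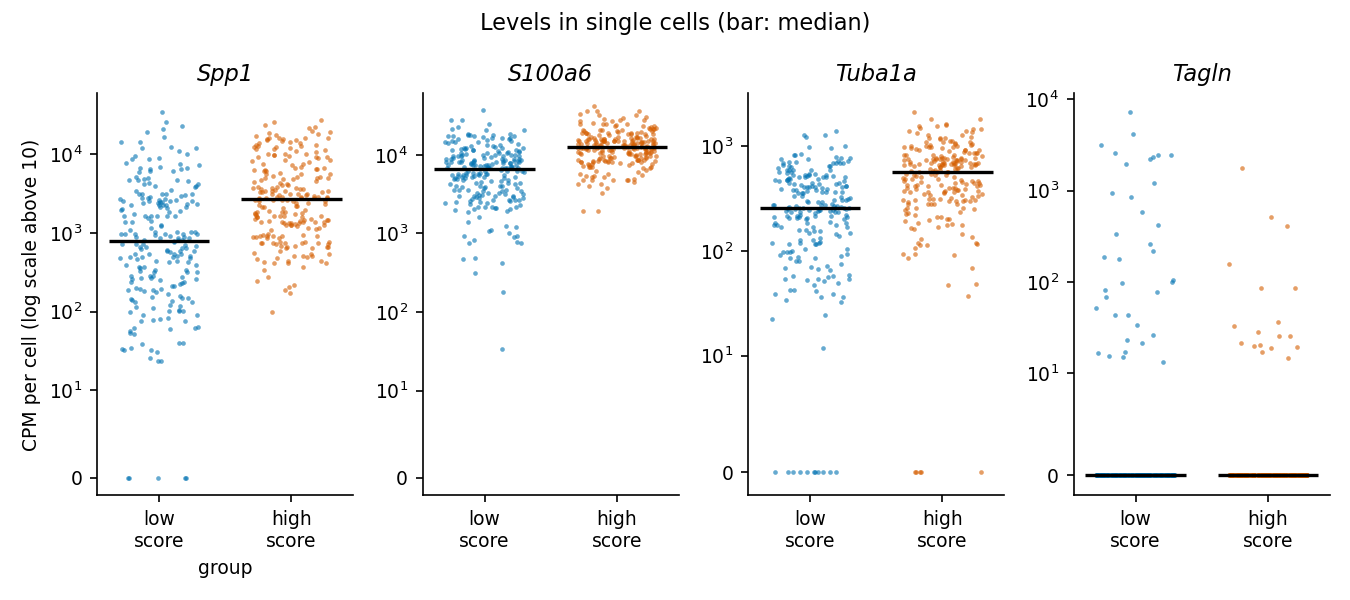
CPM per cell (y axis, logarithmic above 10) of Spp1, S100a6, Tuba1a and Tagln in the 228 low-score and 228 high-score cells; each point is a cell and the bar is the median. The medians of S100a6 (6549 and 12556 CPM) and Spp1 (779 and 2668 CPM) are apart with wide overlap, while Tagln has a median of 0 in both groups and a few low-score cells above 1000 CPM.

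Spp1, Plat and Havcr1 were called lower in low-score cells. Spp1 encodes osteopontin, a secreted glycoprotein made by tubular epithelium (chromosome 5, 104435118 to 104441050). It stood at 1816 CPM in vehicle, 2094 CPM (2066 to 2123) in low-score, 3349 CPM in middle and 4501 CPM (4458 to 4544) in high-score cells, which is 2.15-fold lower in low-score cells (-1.10, -1.13 to -1.08). The median cell held 779 CPM in the low-score and 2668 CPM in the high-score group. Plat, the tissue plasminogen activator, stood at 145.9 and 321.5 CPM (-1.14, -1.23 to -1.05). Havcr1, the kidney injury molecule KIM-1, stood at 187.9 CPM in vehicle, 18.4 CPM in low-score and 65.1 CPM in high-score cells, 3.55-fold lower (-1.83, -2.07 to -1.58). Its median cell was at 0 in both groups, and 60.2% of its low-score UMIs lay in 10 cells.

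Timp1, an inhibitor of matrix metalloproteinases, stood at 148.0 and 273.1 CPM (-0.88), the cornified envelope precursor Sprr1a at 1222 and 2288 CPM (-0.90) and the claudin Cldn16 at 36.7 and 69.2 CPM (-0.91). Kitl, the ligand of the receptor kinase Kit, stood at 25.8 and 54.0 CPM (-1.07) and the muscle protein gene Xirp2 at 32.4 and 93.6 CPM (-1.53). Xirp2 had 88.4% of its low-score UMIs and 52.2% of its high-score UMIs in 10 cells. Among 8 tubule genes past the floor, 2 were called lower (Havcr1 and Spp1) and 1 higher (Lcn2).

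Enzymes of cholesterol synthesis and of glycolysis leaned lower together without any call. Of 19 cholesterol genes past the floor, 18 lay below 0, with a median of -0.39, and 2 were at least 1.5-fold lower. They were the farnesyl diphosphate synthase Fdps (110.6 and 171.8 CPM, -0.64) and Hmgcs1, an early enzyme of the pathway (65.0 and 98.4 CPM, -0.60). The cholesterol median depended on the ranking: it was -0.42 by Stmn2, Pcsk1n and Scg5, 0.05 by Gsta4, Csn3 and Mt3 and -0.06 without Stmn2. Of 19 glycolysis genes 18 lay below 0, with a median of -0.23, or -0.10 and -0.37 by the same 2 sets of 3 genes. The hexokinase Hk2 (173.9 and 265.3 CPM, -0.61) and the lactate carrier Slc16a3 (11.5 and 18.3 CPM, -0.68) were at least 1.5-fold lower. Of 11 interferon response genes 9 lay below 0, with a median of -0.37, among them Isg15 (47.4 and 74.7 CPM, -0.66) and Ifit3 (27.1 and 49.7 CPM, -0.87). The interferon median was -0.20 and -0.24 by the same 2 sets of 3 genes. Ifit3 turned with the ranking, at -1.70 and 0.30 by these sets and 0.57 without Stmn2. For Isg15, 10 cells held 71.9% of the low-score and 58.1% of the high-score UMIs. Of 17 glutathione S-transferases, 13 lay below 0 (median -0.24), and Gsta2, which is near-identical to a neighbouring copy and therefore uncertain, was called lower (3.76 and 12.5 CPM, -1.73). Of 19 antioxidant genes driven by the factor Nrf2, 14 lay below 0 (median -0.13), with the quinone reductase Nqo1 at 27.30 and 49.998 CPM (-0.87) and the sulfiredoxin Srxn1 at 106.4 and 69.8 CPM (0.61). Ribosomal proteins (89 genes, median 0.06), nuclear-encoded respiratory chain genes (27, -0.05) and the 13 mitochondrially encoded genes (0.02) had medians near that of all genes and no member at 1.5-fold.

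Ddit3 and Chac1 were called higher in low-score cells. Both are known targets of the integrated stress response, in which the factor ATF4 raises genes of amino acid supply and cell death; no list of that response alone was fixed. Ddit3, which encodes CHOP, stood at 20.3 CPM in vehicle, 47.6 CPM (43.4 to 52.1) in low-score, 17.8 CPM in middle and 17.6 CPM (15.01 to 20.49) in high-score cells, a ratio of 1.44 (1.18 to 1.70). Chac1, a glutathione-degrading enzyme, stood at 19.2, 35.1, 19.3 and 11.9 CPM in the same order (1.56, 1.25 to 1.88). Cbs, an enzyme of cysteine synthesis, stood at 10.3 and 3.52 CPM (1.54), Atf5 at 19.3 and 11.1 CPM (0.80) and Atf4 itself at 127.2 and 86.6 CPM (0.56). Cbs reached 10 CPM only in the low-score group, which favours a call there, and was named after its value was seen. The asparagine synthetase Asns, another target, stood at 99.8 and 105.6 CPM (-0.08). The excess of Ddit3 sat in the lowest of the 10 bins, with 47.4 CPM there and 13.6 to 23.5 CPM in the others. Of 28 heat shock and unfolded protein genes, 2 were called higher, Ddit3 and Chac1, and the list median was 0.06. The small heat shock protein Hspb1 went the other way (1052 and 1678 CPM, -0.67).

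Imprinted and growth-control genes split. Plagl1, an imprinted zinc finger factor that restrains growth (chromosome 10, 13060504 to 13131694), stood at 6.31 CPM in vehicle, 47.9 CPM in low-score, 21.3 CPM in middle and 14.8 CPM in high-score cells (1.69, 1.42 to 1.98). Dlk1, an imprinted Notch-like membrane protein, stood at 13.0 and 4.58 CPM (1.503), with 84.4% of its low-score UMIs in 10 cells, and without these its call ended (0.56). Cdkn1c, which encodes the inhibitor p57, stood at 76.4 and 44.5 CPM (0.78). Nnat (26.19 and 44.99 CPM, -0.78) and Mest (34.3 and 51.7 CPM, -0.59) lay on the other side. Of 12 members past the floor, 2 were called higher and 0 lower, with a median of 0.08, the same as over all genes.

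Several abundant noncoding and chromatin RNAs were moderately higher. Malat1, a long noncoding RNA kept in the nucleus, stood at 7335 CPM in vehicle, 49166 CPM in low-score, 41453 CPM in middle and 38097 CPM in high-score cells (0.37), with median cells at 50172 and 37615 CPM. Neat1, the scaffold of nuclear paraspeckles, stood at 1319 and 991.0 CPM (0.41). The linker histone H1f0 stood at 211.3 and 128.1 CPM (0.72) and the bromodomain reader Brd2 at 88.8 and 56.8 CPM (0.64). Of 10 histone genes past the floor, 5 lay above and 5 below 0, with a median of 0.04. Only 1 of them, H1f0, was at least 1.5-fold higher. Brd2 was at 0.63 by Stmn2, Pcsk1n and Scg5, at 0.02 by Gsta4, Csn3 and Mt3 and at 0.03 without Stmn2. Of 13 acetyltransferases and bromodomain readers, 12 lay above 0, with a median of 0.17, or 0.06 with TMM factors. Over all genes 63.3% lay above 0. Of 10 histone deacetylase genes 7 lay above 0 (median 0.03, or -0.08 with TMM factors), and Hdac4 was at least 1.5-fold higher (16.3 and 10.2 CPM, 0.68). The metal-binding Mt1 and Mt2 stood at 1033 and 571.2 CPM (0.85) and at 198.2 and 128.8 CPM (0.62). The median cell of Mt1 differed little, at 341.2 and 323.3 CPM, and 41.7% of its low-score UMIs lay in 10 cells.

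The matrix genes Lox and Tnc were called higher. Lox, which crosslinks collagen, stood at 33.1 CPM in vehicle, 15.5 CPM in low-score and 3.73 CPM in high-score cells (2.06, 1.52 to 2.63). Tnc, the matrix protein tenascin C, stood at 91.3, 19.2 and 8.21 CPM (1.22). Both reached 10 CPM only in the low-score group, which favours a call there. Of the low-score UMIs of Lox, 57.5% lay in 10 cells. The calls of Lox and Tnc ended in 6 and 8 of 28 alternatives. Fibronectin, Fn1, stood at 937.1 and 540.4 CPM (0.79) and Timp3, a metalloproteinase inhibitor bound to matrix, at 588.7 and 345.5 CPM (0.77). Vim, the intermediate filament of mesenchymal cells, lay on the other side (381.2 and 574.1 CPM, -0.59). Of 20 matrix and mesenchymal genes, 2 were called higher and 0 lower, and 6 were higher and 2 lower at 1.5-fold, against 3.98% and 1.62% of all genes. The list median was 0.19 with all 6 ranking genes. It was -0.52 when ranked by Stmn2, Pcsk1n and Scg5 and 0.46 when ranked by Gsta4, Csn3 and Mt3. Edn1, the vasoconstrictor endothelin 1, stood at 55.9 and 21.4 CPM (1.38), and the neuropeptide galanin, Gal, at 45.3 and 21.4 CPM (1.08). The call of Gal ended under TMM factors (0.97).

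**Figure D4:**
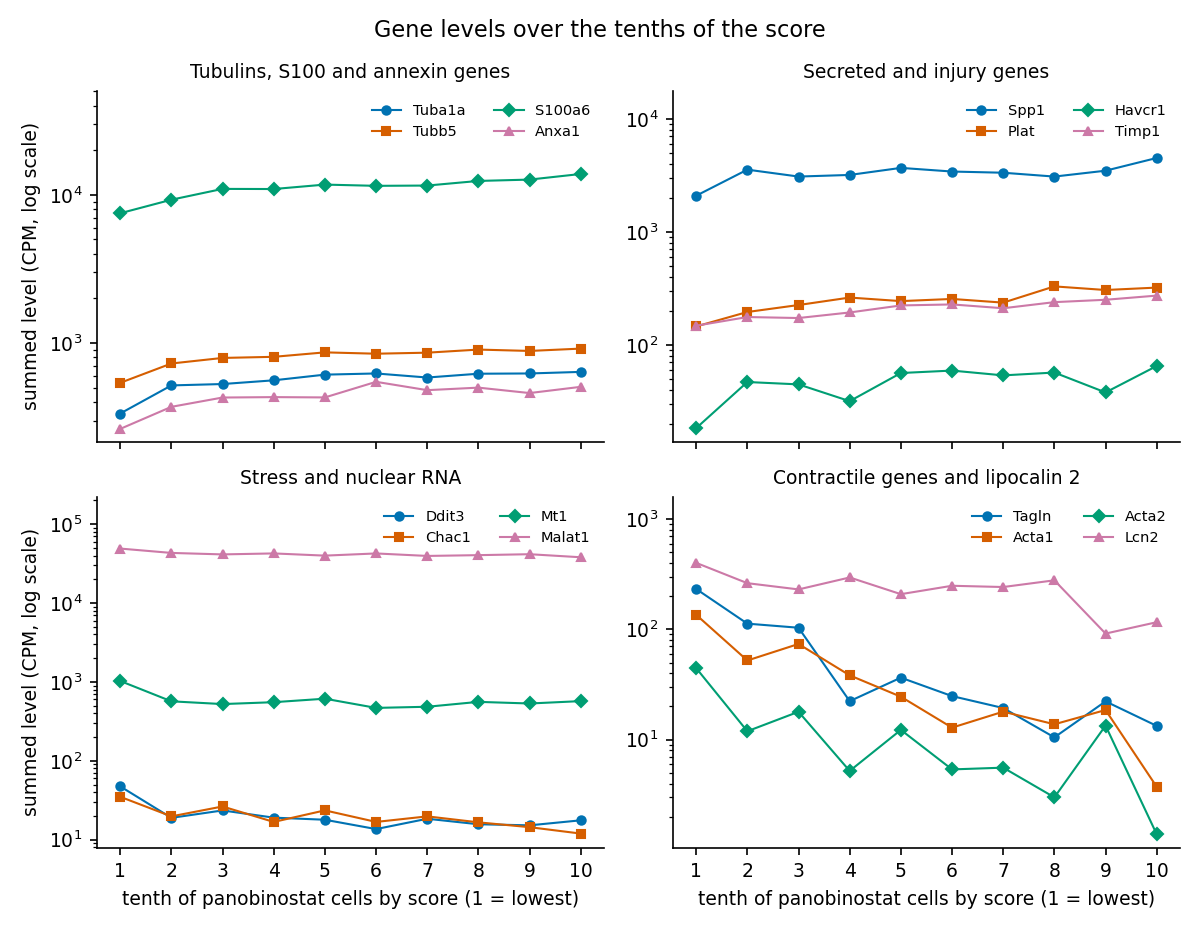
Summed level (CPM, y axis, log scale) of 16 genes over 10 equal bins of panobinostat cells ordered by score (x axis, 1 lowest); each point sums the cells of 1 bin. Tuba1a, Tubb5, S100a6 and Anxa1 show their largest step on this log scale between the first and the second bin, Ddit3 and Mt1 are high in the first bin only, and Tagln goes from 233 CPM to 13.3 CPM.

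Of the 4 largest ratios, 3 belonged to contractile genes, and their UMIs lay in a handful of cells. Tagln, which encodes the actin-binding protein transgelin (chromosome 9, 45929619 to 45936058), stood at 792.0 CPM in vehicle, 233.8 CPM (224.3 to 243.5) in low-score, 44.4 CPM in middle and 13.3 CPM (11.1 to 15.9) in high-score cells, 17.5-fold higher in low-score cells (4.13, 3.87 to 4.40). Acta1, skeletal muscle actin, stood at 338.2, 136.3, 31.8 and 3.73 CPM in the same order (5.19, 4.71 to 5.72). Acta2, smooth muscle actin, stood at 638.5, 44.8, 9.36 and 1.39 CPM (5.01, 4.22 to 5.93). The high-score values of Acta1 and Acta2 rest on 35 and 13 UMIs. Actin genes are near-identical in their coding parts, so reads could be split between copies. Acta2 depended on its few cells and on the ranking: it was at 2.05 without the 10 highest cells of each group, at 2.09 when ranked within clusters and at 0.63 in cluster 0 alone, and its call ended in 3 of 28 alternatives. The predicted gene Gm11562 had 12.7 and 0.640 CPM (4.31), with 95.2% of its low-score UMIs in 10 cells and a ratio of 0.90 without them. The vasoactive peptide gene Uts2b had 17.3 and 1.17 CPM (3.88), with 92.9% of its low-score UMIs in 10 cells. Its ratio was 1.94 without the 10 highest cells of each group and 0.05 in cluster 0 alone. For Acta2, Gm11562 and Uts2b, 100% of the high-score UMIs lay in 10 cells. Their ratios without these cells therefore set the high-score group, left with 0 UMIs, at 3 counts and are not measured ratios. The call of Uts2b ended in 6 of 28 alternatives.

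The median low-score cell held 0 UMIs of each of these genes. The 10 highest of 228 cells held 90.6% of the low-score UMIs of Tagln, 79.4% of those of Acta1 and 97.1% of those of Acta2. Each pair of these 3 genes shared 6 of its 10 highest cells. The 10 highest cells of Tagln had a median of 73751 UMIs, against 39067 over all low-score cells, and 7 of them lay in 1 cluster. The part that this depth has in the result was not tested. The contractile list as a whole, which holds Tagln and Acta2, was near even, with a median of -0.03 over 22 genes and 11 on either side. The cytoplasmic actin Actb stood at 4275 and 6144 CPM (-0.52) and the actin-binding caldesmon, Cald1, at 1282 and 953 CPM (0.43).

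Other genes were held by few cells as well, but by different ones. Lcn2, the secreted lipocalin known as an injury marker of tubules, stood at 208.0 CPM in vehicle, 403.3 CPM in low-score and 116.2 CPM in high-score cells (1.80, 1.70 to 1.89), with 55.1% of the low-score UMIs in 10 cells. The keratin Krt17 stood at 101.1 and 31.98 CPM (1.66), with 88.6% in 10 cells. The 10 highest cells of Lcn2 and of Krt17 shared 0 cells with each other and 0 with those of Tagln, Acta1 or Acta2. Of the 56 higher genes, 21 had over 50% of their low-score UMIs in 10 cells, and of the 16 lower genes 4 had over 50% of their high-score UMIs in 10 cells. When the 10 highest cells of each gene were left out in either group, 43 of the 56 and 15 of the 16 ratios were still at 2-fold or more. With the floor and interval asked as well, 26 and 13 of these calls remained, and in all 41 (0.524%) and 23 (0.294%) of 7825 genes were called.

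Which genes differed depended on which of the ranking genes chose the cells. Ranking by Stmn2, Pcsk1n and Scg5 alone gave ratios of -1.02 for Tuba1a, -0.90 for S100a6, -1.001 for Anxa1 and -1.02 for Vim. Ranking by Gsta4, Csn3 and Mt3 gave -0.11, -0.26, -0.33 and -0.20 for the same 4 genes. Spp1 went the other way about, with -0.01 in the first ranking and -1.54 in the second, as did Plat with -0.33 and -1.22. Across the 28 alternatives Spp1 ran from -1.54 to -0.01 and its call ended in 11, among them leaving out Gsta4 from the ranking (-0.30) and cluster 0 alone (-0.15). Basement membrane collagen Col4a1, at 0.34 with all 6 genes, had -0.57 in the first ranking and 1.45 in the second.

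Some genes turned around between the rankings. Mt1 was at 1.87 by Stmn2, Pcsk1n and Scg5 and at -0.94 by Gsta4, Csn3 and Mt3. The enzymes Srxn1 (1.55 and -1.04) and Nqo1 (0.64 and -1.68) and Gsta2 (1.96 and -3.62) did likewise, and the median of the Nrf2 list went from 0.24 to -0.38. Malat1 had 0.47 and -0.10. The tubulin list median was -0.44 and -0.36. A smaller group kept its direction and a ratio above 2-fold, with Plagl1 at 1.11 and 1.31, Tagln at 2.10 and 4.45 and Acta1 at 1.78 and 3.78. Ddit3 had 1.44 and 0.61 and Chac1 0.39 and 0.94. Leaving Stmn2 alone out of the 6 genes brought Tuba1a to -0.10, Anxa1 to 0.09, Malat1 to -0.22 and Mt1 to -1.22.

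**Figure D5:**
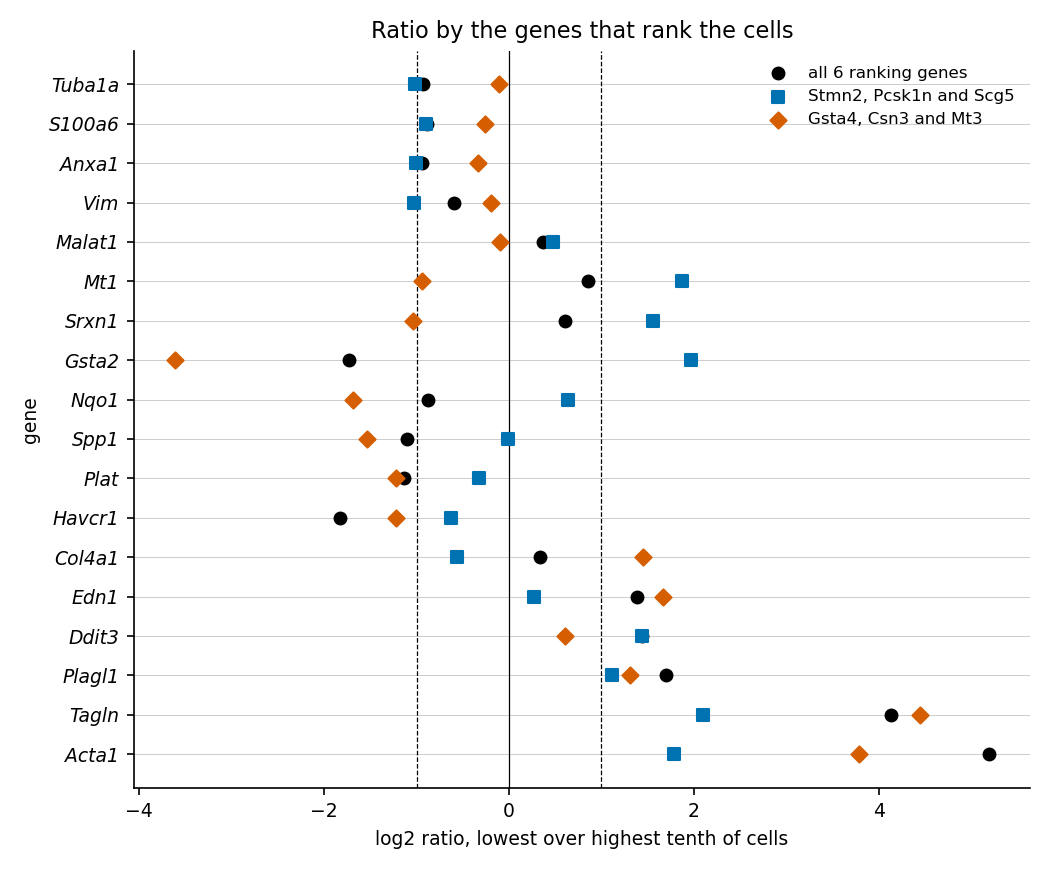
Log2 ratio of the lowest over the highest 10% of panobinostat cells (x axis) for 18 genes (y axis) when cells were ranked by all 6 genes (circles), by Stmn2, Pcsk1n and Scg5 (squares) or by Gsta4, Csn3 and Mt3 (diamonds); dashed lines mark 2-fold. Tuba1a and S100a6 follow the squares, Spp1 and Plat follow the diamonds, Mt1 and Srxn1 lie on opposite sides of 0, and Tagln and Acta1 lie above 1 in all 3 rankings.

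Low-score and high-score cells occurred in all 6 clusters of panobinostat cells, which were built without the ranking genes. Cluster 0, the largest with 934 cells and led by Cldn16, held 66 of the 228 low-score cells (28.9%, exact binomial interval 23.2 to 35.3) and 114 of the 228 high-score cells (43.3 to 56.7%). Cluster 2, led by Igfbp2 and Acta1, held 21.5% (16.3 to 27.4) and 7.02% (4.06 to 11.1), and cluster 4, led by Tagln and Uts2b, 10.1% (6.50 to 14.8) and 2.63% (0.972 to 5.64). Clusters 1 and 3 held 30.3% and 7.89% of low-score and 28.1% and 11.8% of high-score cells. Igfbp2, Acta1, Tagln and Uts2b, which lead clusters 2 and 4, are also higher in low-score cells, so for these the shares and ratios overlap. Not all leading genes follow the shares. Lcn2, a leading gene of cluster 0, was higher in low-score cells (1.80). Kitl, which leads cluster 1, was lower (-1.07) though the shares of that cluster were alike. Ranked within each cluster instead, Tuba1a (-0.92), S100a6 (-0.80), Ddit3 (1.23), Plagl1 (1.46), Tagln (3.15) and Acta1 (3.14) kept their direction with a similar size or a smaller one. The calls of Spp1 (-0.64), Plat (-0.75), Havcr1 (-0.96) and Edn1 (0.71) ended.

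The smallest cluster, with 9 cells, held 3 low-score cells. Its cells had a median of 2917 genes and 0.038% mitochondrial UMIs, far below the 6433 genes and 6.996% of the median low-score cell. The 2 low-score cells with no UMI of any ranking gene belonged to it. It held 16.8% of the low-score UMIs of Acta1 and 24.3% of those of Acta2. Without the 2 cells that lack ranking UMIs, 57 genes were called higher and 16 lower.

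The lineage genes Pax2 and Pax8 and the reporter transcript differed by less than 1.5-fold between the groups. Pax2 stood at 29.1 and 22.5 CPM (0.37) and Pax8 at 107.0 and 110.2 CPM (-0.04), against 40.4 and 120.2 CPM in vehicle. The GFP reporter transcript stood at 7634 and 7959 CPM (-0.06). Of 18 parietal epithelial and progenitor genes, 0 were called higher and 1, Kitl, lower, with a median of -0.07. At 1.5-fold, 0 of these 18 were higher and 2 lower, against 3.98% and 1.62% of all genes. The stem cell antigen Ly6a stood at 1535 and 2204 CPM (-0.52) and the hyaluronan receptor Cd44 at 148.8 and 212.8 CPM (-0.52). Of 15 podocyte genes 0 were called, with a median of 0.14, and Wt1 held 9 and 5 UMIs. At 1.5-fold, 2 of these 15 were higher and 1 lower, against the same shares of all genes. Over all genes 0.664% were called higher and 0.19% lower, so 0 calls in a list this short carries no result about it. Other cell types left few UMIs: endothelial markers summed to 86.8 and 80.9 CPM, mesangial and fibroblast markers to 65.3 and 54.6 CPM, immune markers to 14.0 and 30.2 CPM and neural crest markers to 2.335 and 1.599 CPM. Most of the endothelial sum was Egfl7 (71.7 and 67.5 CPM), and most of the immune sum was Ly6g (11.2 and 26.2 CPM), a member of a family of near-identical neighbours.

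None of the 8 transporters and 6 drug-metabolising enzymes past the floor was called. Over all genes 0.664% were called higher and 0.19% lower, so 0 calls among so few genes carries no result about them. The efflux pump genes Abcb1a and Abcb1b stood at 1.62 and 1.17 CPM and at 24.3 and 19.1 CPM (0.35), and the 8 transporters past the floor had a median of 0.07. The 6 drug-metabolising enzymes past the floor had a median of -0.23, with 5 of 6 below 0. The neuronal repressor Rest stood at 68.7 and 61.7 CPM (0.15, -0.01 to 0.32), and none of the 19 genes of Rest and its corepressors reached 1.5-fold.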

How the data were processed

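Droplet 3′ single-cell libraries of vehicle and panobinostat cells, 1 per treatment, were used. The deposited matrix holds raw UMI counts of 19394 genes in 5135 cells, with no normalization by the authors. Cell Ranger 3.0.1 and build mm10 are named per the submitters' processing notes. Every deposited cell has at least 1798 genes and at most 9.98% mitochondrial UMIs, by a filter not given in the sources used here. Libraries were told apart by the suffix of the cell barcode.

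Members, gene lists and alternatives were chosen with earlier results of these data known. The floor was 10 CPM in at least 1 group. A gene passing it only through the group where it is high favours a call there. A group with 0 UMIs was set at 3 counts for a ratio. The 45 gene lists hold 43 fixed by symbol and 2 by name pattern. Named were the 12 largest and 12 smallest ratios among genes with 50 CPM in 1 group and 10 UMIs in both, up to 3 members per list, cluster-leading genes and a fixed set. Other members of the lists, and Cbs, Gm11562 and Serpinb1a, were named after their values were seen. Gene positions are from GENCODE M21 by unique symbol, for 176 of 179 named genes.

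Clusters used scanpy 1.11.5 and leidenalg 0.10.2 (2000 variable genes, 30 components, 15 neighbours, resolution 0.5). The doublet caller Scrublet, as run in scanpy, marked 14 of 5135 cells (0.273%), too few for it to have worked, so doublets may remain. Scaling by edgeR 4.0.16 (TMM factors) or DESeq2 1.42.0 (size factors) was tried, as were other floors, folds, tails, rankings and cells (28 alternatives, 25 planned, 3 added after seeing the data). The comparison was run on simulated sums drawn with counting error only. These held no variation between cells, so they do not bear on calls held by few cells. Scripts ran under R 4.3.3 and Python 3.11.15 with scipy 1.17.1 and numpy 2.4.6.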

Additional observations from a re-analysis of the deposited data

How the results depend on the processing

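The main rule called 56 genes higher and 16 lower in low-score cells, 12 drug-lowered genes higher and 6 drug-raised genes lower. Of 112 recomputed counts, 69 stayed within 1.5-fold of these. With a 1.5-fold line the 4 counts were 336, 137, 55 and 58. They were 375, 101, 44 and 44 with a floor of 1 CPM, 414, 116, 49 and 57 with no floor, and 5, 5, 3 and 1 with a floor of 50 CPM. With tails of 20% they were 15, 4, 6 and 3. Tails of 5% gave 147 higher and 65 lower genes and 25 raised genes lower. Lower genes numbered 32 with DESeq2 size factors, 29 with TMM factors and 27 when centred on the median gene.

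Ranking without Stmn2 gave 35 lower genes and 16 raised genes lower, and cluster 0 alone gave 34 and 12. Ranking by Gsta4, Csn3 and Mt3 gave 26 and 15. Ranking by Stmn2, Pcsk1n and Scg5 gave 26 lower genes and 4 lowered genes higher, and ranking without Gsta4 gave 26 and 6. Ranking on thinned counts gave 10 lower genes, ranking within clusters 26 higher genes, and thinning before summing 92 higher and 32 lower genes. Raised genes lower numbered 2 without Mt3, 12 with scaled log values and 11 without each gene's 10 highest cells.

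Of the recomputed values of named genes, 18 changed sign with a call on 1 side or both, and the cause was not tested. In 12 of them the gene was called by the main rule, and in 6 (Mt1, Mt2, Srxn1 under 2 rankings, Lce1f and Lce1g) it was called the other way by the alternative alone. Without Stmn2 in the ranking Mt1 went to -1.22, Mt2 to -1.23, Srxn1 to -1.04, Dlk1 to -0.38 and Il5ra to 0.61. With scaled log values Dlk1 went to -0.075 and Il5ra to 0.086. By Stmn2, Pcsk1n and Scg5 Gsta2 went to 1.96 and Igfbp2 to -0.39, and without Gsta4 they went to 1.15 and -0.72. By Gsta4, Csn3 and Mt3 Lcn2 went to -0.33 and Srxn1 to -1.04. Igfbp2 was at -0.93 with tails of 5% and at -0.56 within clusters. In cluster 0 alone Kitl was at 0.048, Lce1f at -1.04 and Lce1g at -1.79. The calls of Tagln and Acta1 held under all 28 alternatives, at 2.06 to 5.13 and 1.78 to 5.55.

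No paired analysis was possible because each treatment has 1 library and the labels give no replicate numbers. All panobinostat cells come from 1 library, and no ratio has a spread between cultures beside it. The score rests on a median of 21 UMIs per low-score cell.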
